A study of Mus musculus with 2 samples.

Results

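The cells described here are mouse CD8+ T cells rich in transcripts for building ribosomes, 2033 of 27258 kept cells (7.46%). They were chosen by their own counts. A score summed UMIs (molecule tags read with the captured RNA, 1 for each molecule) of 8 genes, namely Srm, Nolc1, Gnl3, Lyar, Mettl1, Nop16, Rrp12 and Rrp9, over the cell's total. Members lay at or above the 90th percentile of that score over the pooled kept cells and held no UMI of Nr4a1, Egr2 or Egr3, genes switched on soon after the T cell receptor is engaged. Levels of these 11 genes are therefore a description of the choice and not a result.

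The study placed CD8+ T cells of lymph node origin under electrical stimulation delivered through the matrix, or left them without it. There was 1 library labelled HC, with 13617 kept cells of 15495 barcodes, and 1 labelled NC, with 13641 kept cells of 14798 barcodes. The labels spell out neither name, do not say which library was stimulated, and give no strain, age or treatment time, so both are called by their labels. With 1 library per group no test was possible: every interval below is a 95% interval for counting error only, and a ratio recurring in both libraries is the only repeat the design offers.

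Ribosomes are assembled in the nucleolus. RNA polymerase I transcribes the long ribosomal RNA precursor there, small nucleolar ribonucleoproteins and methyltransferases modify it, helicases and assembly factors fold and cut it, and the nascent subunits are then exported. A T cell that meets antigen leaves quiescence and grows into a large blast before it divides, and this growth is known to draw on the transcription factor MYC, amino acid uptake, nucleotide synthesis and new ribosomes.

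Among the score genes, Srm makes spermidine, Nolc1 and Gnl3 encode the nucleolar proteins Nopp140 and nucleostemin, Mettl1 methylates transfer RNA, and Nop16, Rrp12 and Rrp9 act in ribosome assembly. The cut lay at 8.60 score UMIs per 10000, against a median of 1.98 over all kept cells and a median of 11.7 and a highest value of 35.9 among members. The lowest member stood at 8.59993 and the highest cell below the cut at 8.59845. The score had no gap at the cut, with 191 members within 5% above the cut and 256 cells within 5% below it, so membership is a range of a continuous measure. In HC members Srm stood at 196 CPM (UMIs per 1000000 UMIs, summed over the cells), against 24.6 CPM in all other kept HC cells. In NC members Srm stood at 236 CPM, against 47.0 CPM in all other NC cells. Nolc1 supplied 24.2% of the score UMIs of members in both libraries. At least 5 of the 8 genes were detected in 68.9% of HC members and 60.0% of NC members, and at most 2 in 3.86% and 5.56%, so the score rarely rested on a single gene.

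Members made up 4.75% of kept HC cells (4.40 to 5.12; 647 cells) and 10.2% of kept NC cells (9.66 to 10.7; 1386 cells). The cut was pooled, so this contrast depends on that choice: with the percentile taken within each library, which fixes the share at the cut, members were 8.07% of HC cells and 7.0% of NC cells. At or above the pooled cut, 21.6% of HC cells and 27.1% of NC cells were left out for a UMI of Nr4a1, Egr2 or Egr3, against 6.93% and 10.8% of the cells below it. The cells left out were deep, with medians of 10552 UMIs in HC and 10736 in NC, and the part of depth in that exclusion was not tested.

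Depth moved with membership. Members had a median of 10231 UMIs and 2711 genes in HC, against 7319 UMIs and 2155 genes in the other HC cells. In NC they had 8654 UMIs and 2406 genes, against 6765 UMIs and 2000 genes. Across 5 equal bins of all kept cells, ordered from fewest to most UMIs, members were 2.21%, 2.12%, 3.59%, 6.11% and 9.55% of HC cells and 10.8%, 5.12%, 7.92%, 10.6% and 16.1% of NC cells. The shallowest bin, with at most 4739 UMIs, held 324 NC members (23.4% of that library's members) and 54 HC members (8.35%). At that depth few score UMIs are needed to reach the cut. Over all members the lower quartile of score UMIs was 6 in NC and 9 in HC. The part of this in the share of shallow members was not tested. The files used here hold no cell size, so the name blast rests on transcripts alone.

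**Figure D1:**
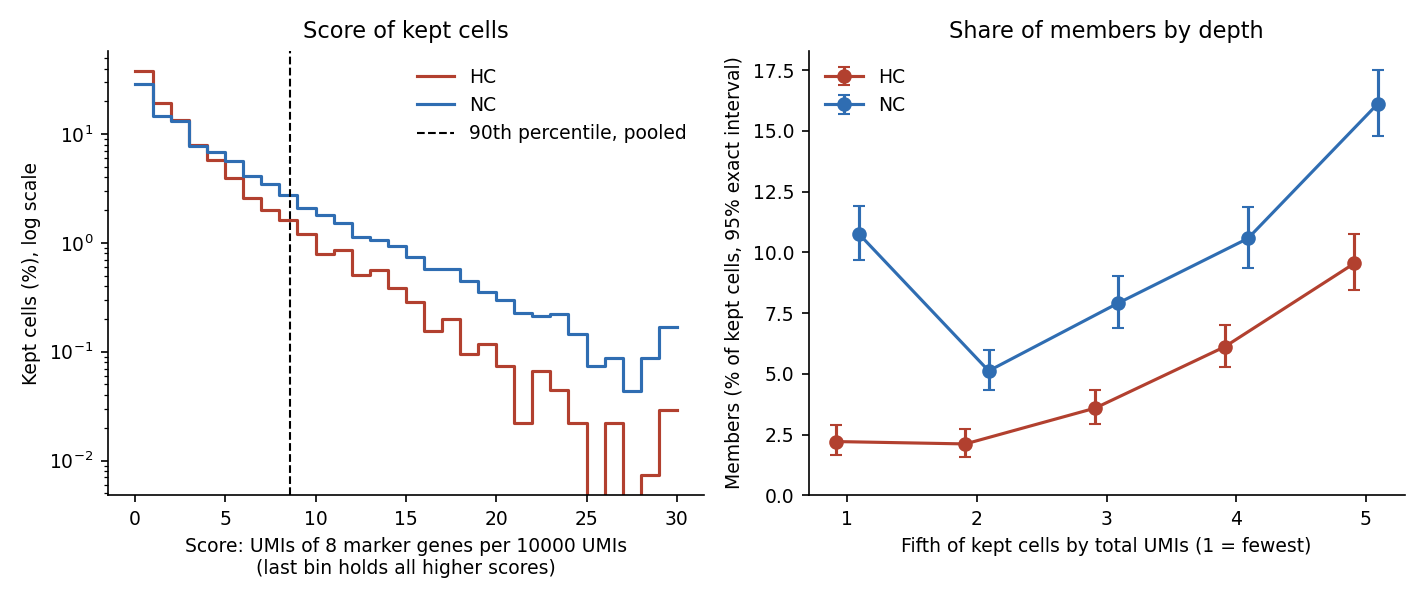
Left: percent of kept cells (log axis) by score, in UMIs of the 8 genes per 10000 UMIs, for HC (red) and NC (blue); bins with no cell are not drawn and the dashed line is the pooled cut of 8.60. Right: members as a percent of kept cells in each of 5 bins of total UMIs, with 95% exact binomial intervals; NC lies above HC in all 5 bins and stands at 10.8% in the shallowest.

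The members were CD8 T cells by their transcripts. Cd8a and Cd8b1 encode the co-receptor, and 98.6% of HC members and 97.7% of NC members held at least 1 UMI of either, against 98.3% and 98.5% of the other cells. The 8 CD8 T cell markers were all detected and summed to 3754 CPM in HC members and 4342 CPM in other HC cells, and to 4448 CPM in NC members and 4800 CPM in other NC cells. Cd4 of helper cells and Foxp3 of regulatory cells had 0 UMIs in members of both libraries, and the 5 red cell and platelet markers were at 0. B cell markers, mostly Ighm, summed to 301 CPM in HC members and 484 CPM in other HC cells, and to 276 CPM in NC members and 424 CPM in other NC cells, and Cd79a, Ms4a1, Iglc2 and Pax5 were at 0 in HC members. Macrophage markers summed to 2.13 CPM in HC members and 3.19 CPM in other HC cells, and to 18.6 CPM in NC members and 4.92 CPM in other NC cells, with Csf1r, C1qa and C1qb at 0 in members. Plasma cell markers summed to 41.6 CPM in HC members and 32.1 CPM in other HC cells, and to 39.2 and 29.6 CPM in NC. Most of this was Xbp1, at 37.7 and 27.6 CPM in HC and at 35.3 and 25.8 CPM in NC. Sdc1 was also higher in members of both libraries, Igha was lower in both, and Mzb1 was lower in HC and higher in NC. Jchain was at 0 in members, but stood at only 0.0745 CPM in other HC cells and 0.707 CPM in other NC cells. Ncr1 and Klra8 of NK cells were at 0 in members, and the NK, dendritic and neutrophil lists reached at most 24.5 CPM. The gamma-delta, regulatory, helper and stromal lists were lower in members than in other cells of both libraries, at 78.0, 255, 4.68 and 20.4 CPM in HC members and 101, 207, 3.51 and 21.5 CPM in NC members. A single NC member held 375 B cell marker UMIs, 311 of them Igkc, and another held 229 macrophage marker UMIs, 224 of them Lyz2. Doublets were not removed, and 11 HC members (1.70%) and 39 NC members (2.81%) had more UMIs than the pooled 99th percentile. The 2 libraries shared 64 barcodes, 49 of them kept in both, and 12 members carried one. Without the shared barcodes members were 4.76% of HC cells and 10.2% of NC cells.

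Genes of ribosome assembly outside the score stood higher in members, with few exceptions. Against all other kept cells of the same library, 55 of 64 such genes were at least 1.5-fold higher in both libraries and 0 were lower. That comparison called 9.98% of 8596 genes higher and 7.63% lower, and since the score came from the same cells, nothing is read from the list's share. The median log2 ratio of members over other cells was 1.30 in HC and 1.15 in NC for the list, against -0.00835 and -0.00807 for all genes tested. Summed, the list took 10582 CPM in HC members and 5383 CPM in other HC cells, and 12188 CPM in NC members and 6045 CPM in other NC cells.

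The ratios differed within the list. Rrp15, a factor of the large subunit, stood at 70.5 CPM in HC members and 18.2 CPM in other HC cells, and at 85.5 CPM in NC members and 28.9 CPM in other NC cells. Nop2, a methyltransferase of large-subunit RNA, had log2 ratios of 1.88 in HC and 1.47 in NC, and Bysl, needed for the small subunit, 1.78 and 1.48. The abundant scaffolds of the nucleolus followed at smaller ratios. Ncl, or nucleolin, stood at 1768 CPM in HC members and 648 CPM in other HC cells (log2 ratio 1.45), and at 2201 and 831 CPM in NC (1.40). Fbl, the fibrillarin that methylates ribosomal RNA, had ratios of 0.84 and 0.79, and Npm1, which escorts subunits, 0.52 and 0.76. Of the 9 genes that did not reach 1.5-fold in both libraries, Riok1, a late small-subunit kinase, was the only one below 0, at -0.01 in HC and -0.08 in NC.

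Cells just below the cut lay between the members and the rest. After thinning every cell to 2000 UMIs, which left out 94 HC and 133 NC cells (8 HC and 29 NC members), the median number of UMIs from these 64 genes was 20 in HC members and 9 in other HC cells, and 22 in NC members and 10 in other NC cells. Without thinning, the medians scaled to 2000 UMIs were 19.8 and 9.44 in HC and 22.0 and 9.85 in NC. Cells between the 80th and 90th percentile of the score had medians of 14 in HC and 15 in NC. The sets overlapped, with a 10th percentile of 12 for members of either library and a 90th percentile of 16 for other HC cells and 19 for other NC cells.

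The machinery that makes ribosomal RNA followed in part. Of 14 RNA polymerase I genes, 6 were higher and 0 lower, with list medians of 0.51 in HC and 0.53 in NC. Polr1b, the second largest subunit, stood at 21.6 CPM in HC members and 4.78 CPM in other HC cells, and at 20.9 CPM in NC members and 6.63 CPM in other NC cells. Cd3eap, a further polymerase I subunit that overlaps Ercc1 in the genome, had ratios of 1.69 and 1.5, and Polr1a, the largest subunit, 1.47 and 1.16. Of 20 RNA polymerase III genes, which transcribe transfer RNA and 5S ribosomal RNA, 4 were higher and 0 lower, led by Polr3d at 1.79 and 1.21. The list medians were 0.29 in HC and 0.20 in NC, and 9.98% of all genes tested were called higher.

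The mRNAs of the ribosomal proteins themselves did not stand higher. None of 42 cytosolic ribosomal protein genes reached 1.5-fold in either direction, and their ratios ran from -0.16 to 0.13 in HC and from -0.19 to 0.12 in NC. Summed, the 42 genes took 235428 CPM in HC members and 243366 CPM in other HC cells, and 228137 CPM in NC members and 241081 CPM in other NC cells. CPM are shares of a total, and members held more UMIs per cell, so a similar share is not a similar number of molecules per cell. In the mitochondrial list, 13 of 32 ribosomal protein genes were higher and 0 lower, with medians of 0.53 and 0.52, and Mrpl12 stood at 273 CPM in HC members and 129 CPM in other HC cells, and at 278 and 134 CPM in NC.

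**Figure D2:**
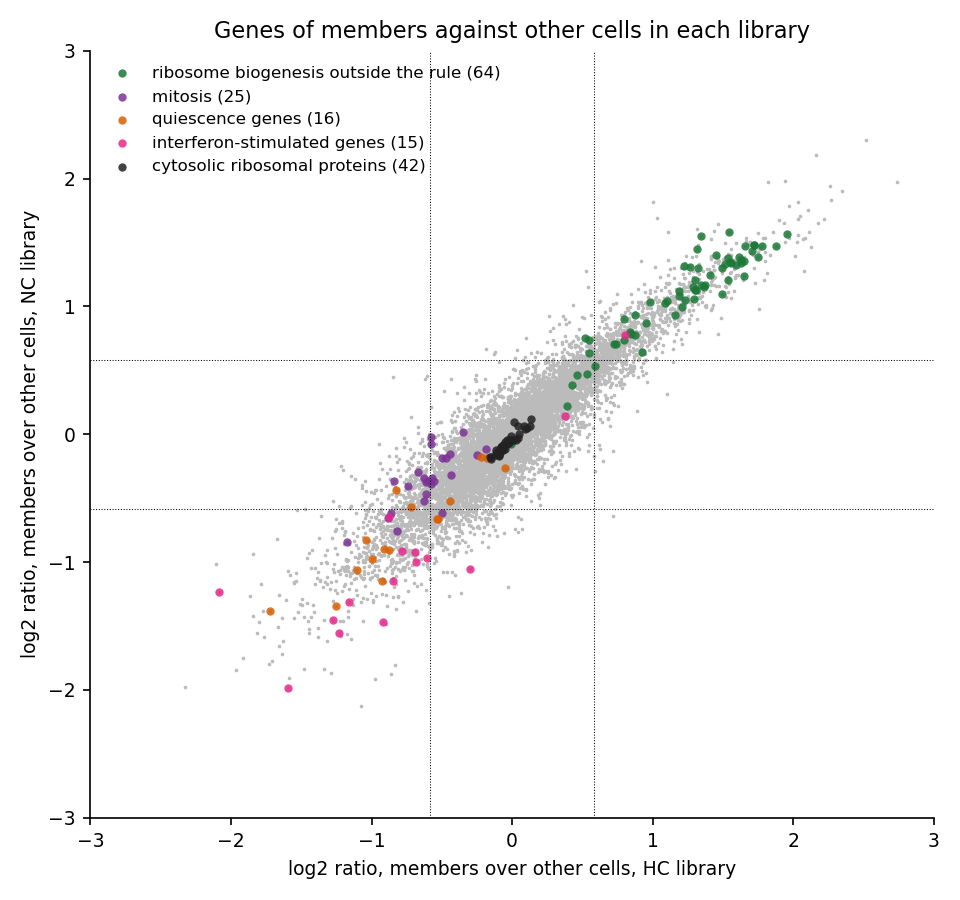
Each point is 1 of 8596 genes, placed by its log2 ratio of members over other cells in the HC library (x axis) and in the NC library (y axis); dotted lines mark 1.5-fold. Ribosome assembly genes outside the score (green) lie mostly in the upper right, cytosolic ribosomal proteins (black) at the centre, and mitosis (purple), quiescence (orange) and interferon genes (pink) mostly in the lower left.

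MYC is known to drive ribosome assembly genes through the E-box, the letters CACGTG, which read the same on both strands. Windows from 250 bases before to 50 after each gene's start were taken from RefSeq (build GRCm38.p6), where 57 of the 64 assembly genes and 6 of the 8 score genes matched. The letters were in a window of 13 of the 57 assembly genes (22.8%) and of 1 of the 6 score genes, Mettl1. They were in 8.09% of all 27025 genes of the table and in 12.5% of the 6895 tested genes that matched. Of genes at least 1.5-fold higher in members 20.5% held them (145 of 708), and of genes at least 1.5-fold lower 7.51% (39 of 519). A match is a description of letters and shows neither a bound factor nor a cause. In 4 of the assembly genes the letters lay in the 250 bases before the start, and those stretches are printed to show where they sit, with CACGTG in capitals and 5′ to 3′ on the gene's own strand. They are Nop2 (chr6:125131633-125131882, plus strand), Utp18 of the small-subunit processome (chr11:93885767-93886016, minus strand), Imp4 of the same complex (chr1:34439579-34439828, plus strand) and Nmd3, the export adaptor of the large subunit (chr3:69721805-69722054, plus strand). The first letter lies 60, 20, 121 and 114 bases before the start in that order.
Nop2: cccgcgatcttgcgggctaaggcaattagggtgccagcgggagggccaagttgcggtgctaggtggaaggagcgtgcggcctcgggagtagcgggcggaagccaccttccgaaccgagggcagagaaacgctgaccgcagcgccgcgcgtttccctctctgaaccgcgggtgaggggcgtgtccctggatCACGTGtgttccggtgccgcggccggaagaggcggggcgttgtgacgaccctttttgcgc
Utp18: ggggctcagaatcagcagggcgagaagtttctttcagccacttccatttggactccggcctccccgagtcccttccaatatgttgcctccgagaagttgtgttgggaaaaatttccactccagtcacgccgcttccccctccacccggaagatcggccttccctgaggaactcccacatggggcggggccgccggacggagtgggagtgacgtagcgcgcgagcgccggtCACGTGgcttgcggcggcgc
Imp4: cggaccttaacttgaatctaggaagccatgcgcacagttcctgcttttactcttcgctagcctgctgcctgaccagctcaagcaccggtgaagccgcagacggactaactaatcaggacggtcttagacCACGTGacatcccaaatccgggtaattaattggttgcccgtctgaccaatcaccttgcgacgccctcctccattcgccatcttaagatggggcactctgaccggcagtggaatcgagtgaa
Nmd3: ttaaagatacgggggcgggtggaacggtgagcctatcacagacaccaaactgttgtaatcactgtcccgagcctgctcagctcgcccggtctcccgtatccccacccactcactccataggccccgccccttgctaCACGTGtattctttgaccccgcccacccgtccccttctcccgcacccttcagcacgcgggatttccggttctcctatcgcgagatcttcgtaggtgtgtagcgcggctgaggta

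Beside these sequences, Nop2 had log2 ratios of members over other cells of 1.88 in HC and 1.47 in NC, Utp18 of 1.32 and 1.30, Imp4 of 0.80 and 0.74, and Nmd3 of 0.74 and 0.71. The 4 genes were printed for holding the letters, and nothing is read from their ratios. The whole list ran from -0.01 to 1.95 in HC and from -0.08 to 1.58 in NC.

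The MYC network list as a whole did not shift, with medians of -0.00840 in HC and -0.0226 in NC. Of its genes, 4 lay above 0 in both libraries and 4 below 0 in both. Within it Myc stood higher in members and 3 MXD repressors, which compete with MYC for the partner MAX, stood lower. Myc stood at 67.5 CPM in HC members and 32.3 CPM in other HC cells (log2 ratio 1.07), and at 65.8 CPM in NC members and 42.2 CPM in other NC cells (0.64). Of the 10 genes tested, Myc was the 1 called higher, a share near the 9.98% of all genes tested. Mxd4, Mxd1 and Mxd3 were the 3 called lower, against 7.63% of all genes tested. Mxd4 stood at 40.7 CPM in HC members and 129 CPM in other HC cells, and at 58.2 CPM in NC members and 184 CPM in other NC cells. Mxd1 had ratios of -1.38 in HC and -1.52 in NC, and Mxd3 of -1.43 and -1.05. Max had ratios of 0.34 and 0.24, under 1.5-fold. Against the cells above the cut that were left out for Nr4a1, Egr2 or Egr3, Myc had log2 ratios of members over those cells of -0.51 in HC and -0.70 in NC.

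Supplies for growth stood higher along with assembly. Of 28 genes of purine, pyrimidine and one-carbon synthesis, 16 were higher and 0 lower, with medians of 0.83 in HC and 0.77 in NC. Shmt1, which moves serine carbon into folate, stood at 48.4 CPM in HC members and 11.8 CPM in other HC cells, and at 62.4 CPM in NC members and 17.7 CPM in other NC cells. Mthfd1 of the same folate cycle had ratios of 1.75 and 1.46, Gart of purine synthesis 1.54 and 1.41, and Ctps, which makes CTP, 1.42 and 1.52. For uptake, 5 of 11 genes were higher and 1, Slc43a1, lower. Slc7a5, the transporter of large neutral amino acids, stood at 21.7 CPM in HC members and 5.03 CPM in other HC cells, and at 15.5 CPM in NC members and 5.16 CPM in other NC cells, and Tfrc, the transferrin receptor, had ratios of 1.15 and 1.30.

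Polyamine genes beside Srm were mixed, with 4 of 13 higher and 0 lower. The 4 were Odc1, the first step of the pathway (1.59 in HC and 1.49 in NC), Mtap, which salvages its by-product (1.47 and 1.35), Amd1, which supplies the aminopropyl group (1.42 and 0.99), and Eif5a, which carries the hypusine made from spermidine (1.14 and 0.99). Asns, or asparagine synthetase, led the list of amino acid and endoplasmic reticulum stress at 2.22 and 1.68. In that list 6 of 15 were higher and 1, Trib3, was lower (-1.07 and -2.12, at under 10 CPM in each set of cells).

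Translation and protein folding followed. Of 29 translation factors 17 were higher and 0 lower, with medians of 0.70 in HC and 0.63 in NC, and of 20 transfer RNA synthetases 10 were higher and 0 lower, with medians of 0.81 and 0.71. Eif2b3, part of the exchange factor that recharges eIF2, had ratios of 1.46 and 1.39, and Iars, the isoleucine synthetase, 1.29 and 0.97. Of 32 genes of nuclear RNA processing and methylation 21 were higher and 0 lower, led by the transfer RNA methylase subunit Trmt61a (2.27 and 1.83) and the pseudouridine synthase Pus7 (1.97 and 1.78). Of 20 cytosolic chaperones 12 were higher and 0 lower, with Hsph1 at 1.42 and 1.38 and Cct6a of the TRiC chaperonin at 1.22 and 1.16.

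Among mitochondrial genes, those of protein import and folding stood out from those of respiration. Of 20 import and chaperonin genes 16 were higher and 0 lower, with medians of 1.05 in HC and 0.94 in NC. Hspd1, the HSP60 chaperonin, stood at 587 CPM in HC members and 174 CPM in other HC cells, and at 697 CPM in NC members and 234 CPM in other NC cells. Timm8a1 and Timm10 of the intermembrane space had ratios of 1.69 and 1.72 in HC and of 1.49 and 1.30 in NC. Of 29 nuclear genes of oxidative phosphorylation only Cycs, Atp5g1 and Ndufab1 were called, all higher, with list medians of 0.26 and 0.23. That share is near the 9.98% called higher over all genes tested. None of the 13 mitochondrially encoded genes was called, with medians of -0.02 and -0.03.

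Some genes of transport, protein turnover and metabolism stood higher, beside 9.98% called higher and 7.63% called lower over all genes tested. Of 19 genes of nuclear import and RNA export 12 were higher and 0 lower, among them Ranbp1 of the RAN cycle (1.16 in HC and 1.05 in NC) and the importin Ipo4 (1.59 and 1.24). Of 26 proteasome genes 5 were higher and 0 lower, led by the activator Psme3 (1.21 and 1.05), and of 20 sterol genes 5 were higher and 0 lower. Of 17 glycolysis genes Hk2, a hexokinase, Ldha, or lactate dehydrogenase, and Slc16a1, a lactate carrier, were higher and 0 were lower. Hk2 stood at 15.9 CPM in HC members and 7.94 CPM in other HC cells, and at 14.2 CPM in NC members and 4.04 CPM in other NC cells. Of 14 hypoxia genes Ddit4, an inhibitor of mTORC1, was the 1 called, lower at -0.79 and -0.68, a share near the 7.63% of all genes. Of 13 p53 targets 2 were higher and 3 lower, with the exonuclease Aen at 1.80 and 1.36 and the autophagy gene Trp53inp1 at -0.97 and -1.26.

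**Figure D3:**
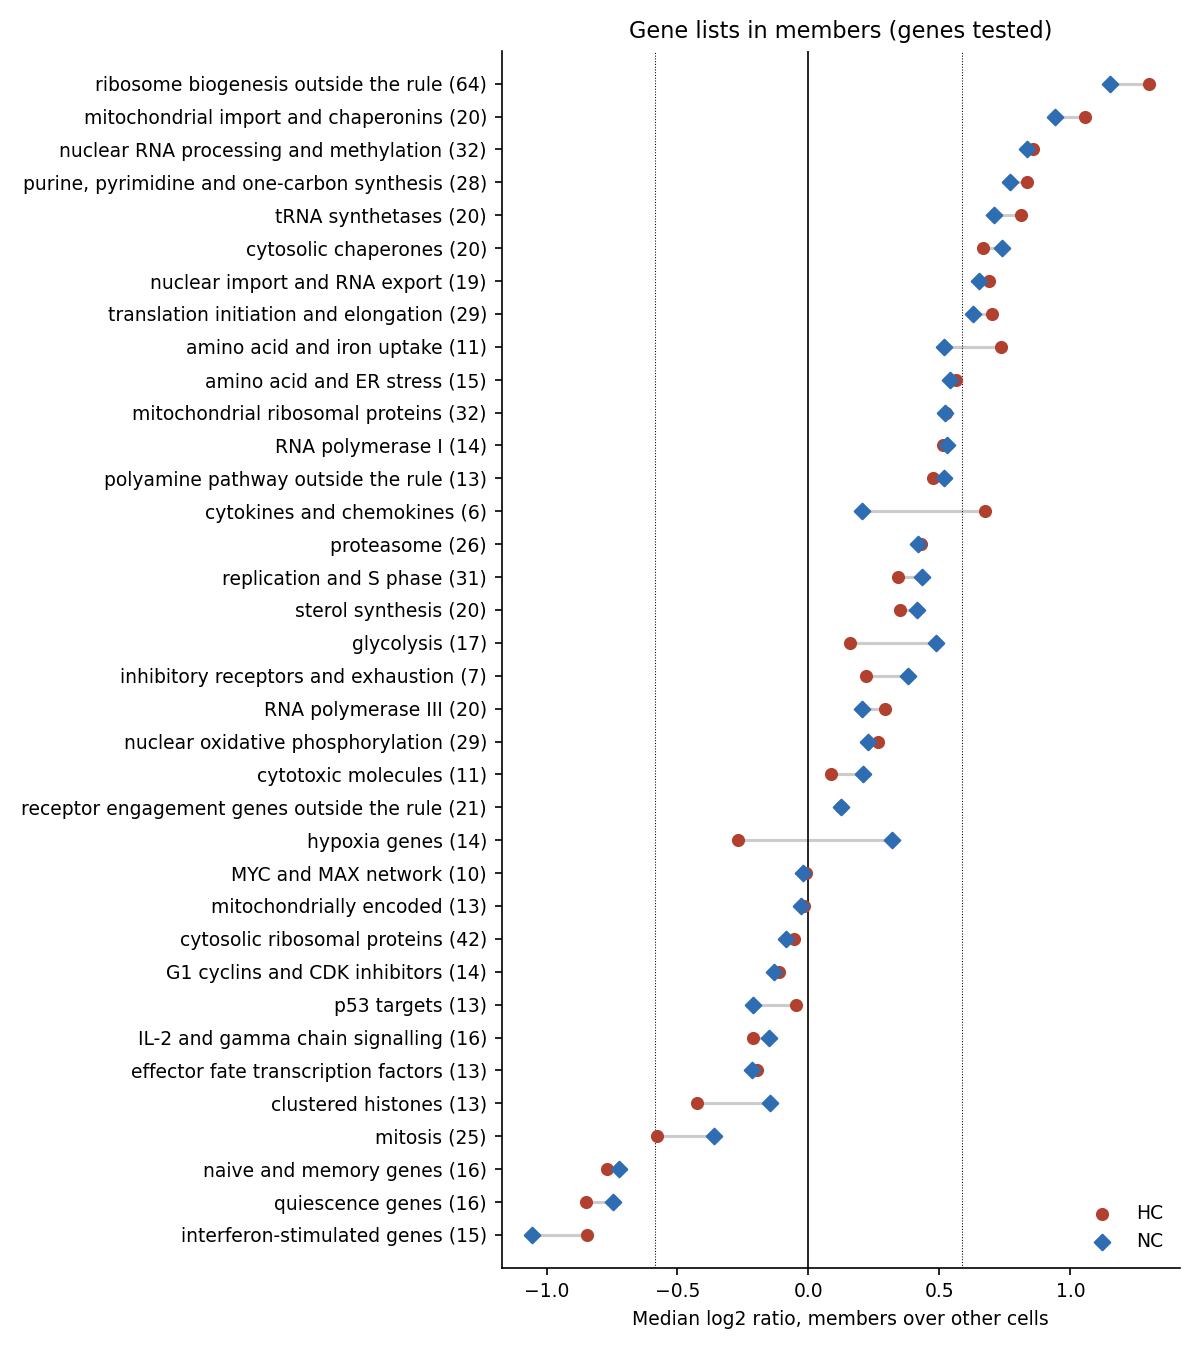
Median log2 ratio of members over other cells for 36 gene lists, in HC (red circles) and NC (blue diamonds); the number of genes tested stands beside each name and dotted lines mark 1.5-fold. Ribosome assembly outside the score is at the top (1.30 and 1.15) and interferon-stimulated genes at the bottom (-0.85 and -1.05).

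Genes that hold T cells at rest stood lower in members. Of 16 quiescence genes 8 were lower and 0 higher, with medians of -0.85 in HC and -0.75 in NC, and all 16 lay below 0 in both libraries. Klf2, which sustains quiescence and exit from lymph nodes, stood at 213 CPM in HC members and 509 CPM in other HC cells, and at 172 CPM in NC members and 437 CPM in other NC cells. Ypel3 had ratios of -1.72 in HC and -1.38 in NC, Pik3ip1, an inhibitor of PI3-kinase, -0.93 and -1.15, and Cdkn1b, the p27 inhibitor of cyclin-dependent kinases, -1.10 and -1.06. Of 16 naive and memory genes, 2 of which (Klf2 and Il7r) also stand in other lists, 8 were lower and 0 higher, with medians of -0.77 and -0.72. Tcf7, the factor TCF-1, stood at 103 CPM in HC members and 226 CPM in other HC cells, and at 126 CPM in NC members and 282 CPM in other NC cells. S1pr1, the egress receptor, had ratios of -1.33 and -1.83, and Klf3 of -1.96 and -1.84.

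The ratios of replication and mitosis genes both depended on depth. Of 31 replication genes 4 were higher, a share near the 9.98% of all genes tested, and 0 were lower, with medians of 0.34 in HC and 0.44 in NC. Ung, which removes uracil from DNA, had ratios of 1.75 and 1.43, and Mcm2 of the replicative helicase 0.78 and 0.80. Of 25 mitosis genes 0 were higher and 4 lower, namely Cenpf, Kif23, Prc1 and Nusap1, with medians of -0.58 and -0.36. Per cell, thinned to 2000 UMIs, mitosis genes had a median of 4 UMIs in HC members and 6 in other HC cells, but of 4 in NC members and 3 in other NC cells, where the means were 5.36 and 6.37. Without thinning, the NC medians per 2000 UMIs were 4.10 and 3.33, so the typical NC member stood above the typical other NC cell while the sum stood below. Mki67, present in dividing cells, stood at 352 CPM in HC members and 533 CPM in other HC cells, and at 284 CPM in NC members and 367 CPM in other NC cells. Of 14 G1 cyclins and inhibitors 1 was higher and 3 lower: the kinase Cdk6 was higher (1.35 and 1.03), and beside Cdkn1b the inhibitors Cdkn2d (-1.64 and -1.44) and Cdkn2c (-1.21 and -0.73) were lower. Among 13 histone genes only H2afx was called, lower at -0.97 and -0.73, a share near the 7.63% of all genes tested.

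The summed replication list had log2 ratios of members over other cells of 0.98, 0.37, -0.12, 0.08 and 0.16 in HC and of 0.66, 1.21, 0.22, 0.06 and 0.18 in NC, from the shallowest to the deepest bin. It was thus past 1.5-fold in the shallowest bin of both libraries and in bin 2 of NC, and under 1.5-fold in the other bins. The direction of the mitosis list differed between depth bins. In the shallowest bin its sum was 2142 CPM in HC members and 1797 CPM in other HC cells, and 3180 CPM in NC members and 2493 CPM in other NC cells, higher in members of both. In bin 2 it was lower in HC members (log2 ratio -0.97) and higher in NC members (0.60). In bins 3, 4 and 5 it was lower in members of both libraries, at -1.35, -1.27 and -0.59 in HC and -0.58, -1.36 and -0.58 in NC. The ratio of ribosome assembly lay between 0.84 and 1.14 in HC and between 0.84 and 1.16 in NC over the 5 bins. Quiescence genes lay between -0.81 and -0.55 in HC and between -0.80 and -0.64 in NC.

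**Figure D4:**
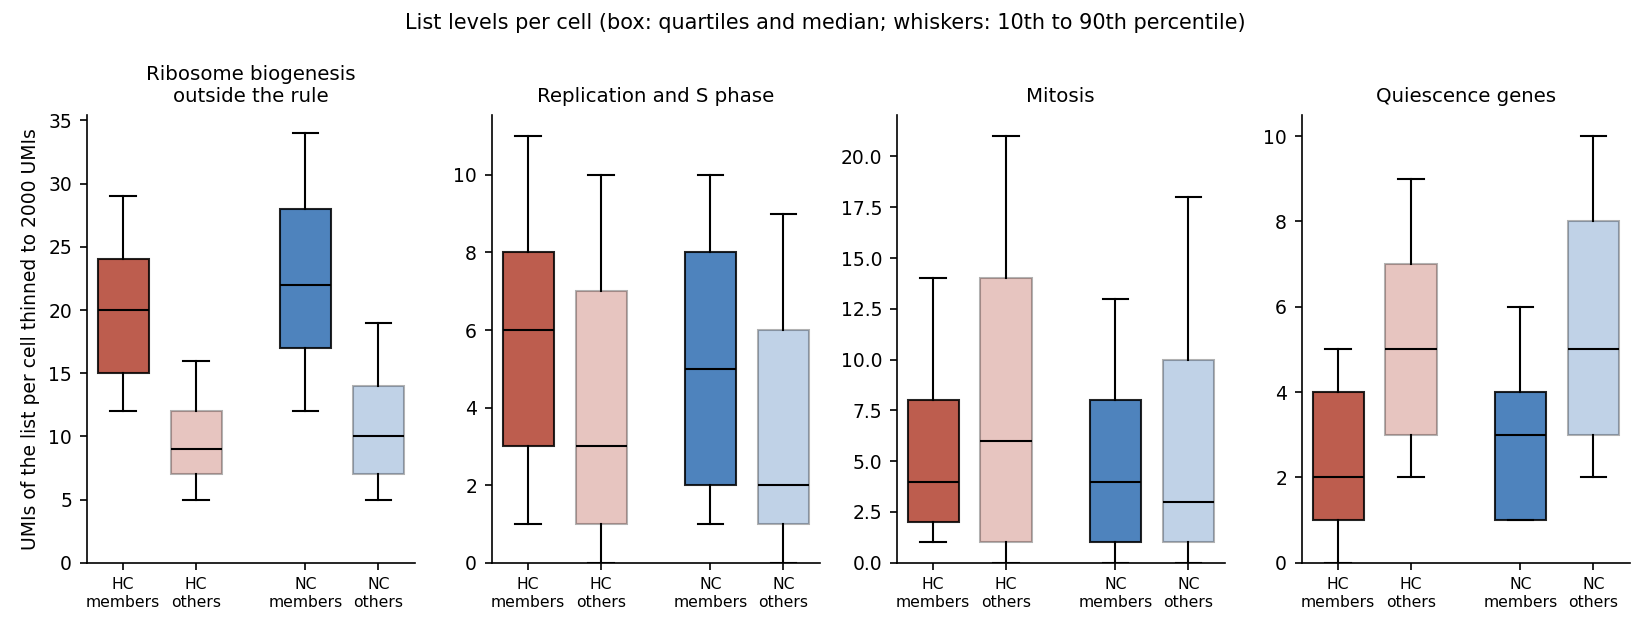
UMIs per cell from 4 gene lists after thinning each cell to 2000 UMIs, in members and all other cells of HC (red) and NC (blue); boxes give quartiles and medians, whiskers the 10th and 90th percentiles. Ribosome assembly has medians of 20 in HC members and 9 in other HC cells and of 22 in NC members and 10 in other NC cells, while mitosis boxes overlap widely, with medians of 4 in HC members and 6 in other HC cells and of 4 in NC members and 3 in other NC cells.

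Some genes of receptor engagement and killing stood higher in members, although cells with Nr4a1, Egr2 or Egr3 had been left out. Of 21 further engagement genes 5 were higher and 1, Jun, was lower, with medians of 0.12 in both. Over all genes tested 9.98% were called higher and 7.63% lower, to be set beside each count here. The 5 were Tnfrsf9, the co-stimulatory receptor 4-1BB (1.82 in HC and 1.97 in NC), Tnfrsf4, or OX40 (1.46 and 1.64), Crtam (1.76 and 1.45), Cd160 (1.55 and 1.27) and Nr4a2 (0.60 and 0.76). Among killing genes 3 of 11 were higher and 0 lower, with medians of 0.09 in HC and 0.21 in NC. Gzmb, or granzyme B, stood at 811 CPM in HC members and 345 CPM in other HC cells, and at 444 CPM in NC members and 190 CPM in other NC cells. Prf1, or perforin, had ratios of 1.44 and 1.59, and Gzmc of 1.23 and 1.15. Il2ra, the alpha chain that makes the interleukin-2 receptor bind tightly, stood at 85.1 CPM in HC members and 47.1 CPM in other HC cells, and at 47.9 CPM in NC members and 27.2 CPM in other NC cells, and was the 1 gene called higher of 16 in interleukin-2 and related signalling. In that list 5 were lower, namely Il7r, Jak1, Socs1, Socs3 and Pim2, and the medians were -0.21 in HC and -0.15 in NC. Among 7 inhibitory receptors Cd160, already named, was the 1 called, with medians of 0.22 in HC and 0.38 in NC. Among 13 effector fate factors Batf3 (1.49 and 0.91) and Zeb2 were higher and Runx3 (-0.78 and -0.94) and Ikzf2 lower, with medians of -0.20 and -0.22.

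Xcl1, which draws in dendritic cells that carry its receptor, had the highest ratio named outside the score. It stood at 158 CPM in HC members and 23.6 CPM in other HC cells (log2 ratio 2.74), and at 883 CPM in NC members and 225 CPM in other NC cells (1.97). The other cells include those above the cut left out for Nr4a1, Egr2 or Egr3, where Xcl1 stood at 518 CPM in HC and 2018 CPM in NC. The level in other cells is therefore not that of low-score cells alone. Xcl1 was the 1 cytokine or chemokine of 6 tested that was called. Ccl3 and Ccl4, inflammatory chemokines, had ratios of 1.10 and 0.46 in HC and of 0.32 and 0.22 in NC. None of these 4 ratios kept its direction under every alternative: Ccl3 reached -0.18 in HC and -0.18 in NC, and Ccl4 -0.17 in HC and -0.21 in NC. In the left-out cells, counted among the other cells, Ccl3 stood at 117 CPM in HC and 327 CPM in NC. Ccl4 stood there at 347 and 883 CPM. The part of those cells in the 4 ratios was not tested.

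Interferon-stimulated genes stood lower in members. Of 15 genes 12 were lower and 1, the nuclease Isg20, was higher, with medians of -0.85 in HC and -1.05 in NC. Iigp1, a GTPase that attacks vacuoles of pathogens, stood at 6.95 CPM in HC members and 21.0 CPM in other HC cells, and at 7.94 CPM in NC members and 31.4 CPM in other NC cells. Irf7, which amplifies the response, had ratios of -1.27 and -1.45, and Ifi206 of -1.23 and -1.55. Other genes at the low end were Rasa3, which switches off RAS and RAP1 (-1.92 and -1.75), Arl5c (-1.71 and -1.78), Tsc22d3, the glucocorticoid-induced GILZ (-1.63 and -1.62), Gna15 (-1.64 and -1.72), Tmem71 (-1.80 and -1.47), Slfn1, linked to T cell quiescence in mice (-1.45 and -1.46), Prex1 (-1.44 and -1.52) and Nsg2 (-1.55 and -1.44). At the high end, outside the groups above, were Grwd1, an assembly chaperone (2.05 and 1.71), Ifrd2 (1.93 and 1.65), Nefh, a neurofilament gene (1.90 and 1.67), and Atad3a of mitochondria (1.86 and 1.58).

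The CD8 chains differed in direction. Cd8a stood at 306 CPM in HC members and 240 CPM in other HC cells, and at 461 CPM in NC members and 339 CPM in other NC cells. Cd8b1 stood at 381 CPM in HC members and 538 CPM in other HC cells, and at 434 CPM in NC members and 586 CPM in other NC cells. The log2 ratios were 0.35 and 0.44 for Cd8a and -0.50 and -0.43 for Cd8b1, all under 1.5-fold.

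Set against the 178 HC and 515 NC cells above the cut that were left out for Nr4a1, Egr2 or Egr3, members differed in few genes. Of 8269 genes 30 were at least 1.5-fold higher in members of both libraries (0.363%) and 64 lower (0.774%), a contrast that the rule also fixed in part. Ccl3 stood at 10.4 CPM in HC members and 117 CPM in the left-out HC cells, and at 38.8 CPM in NC members and 327 CPM in the left-out NC cells. Ccl4 had log2 ratios of -3.69 in HC and -2.88 in NC, Xcl1 of -1.72 and -1.19, and Crtam of -1.10 and -1.12. Klf2 (0.89 and 1.05), Il7r (1.0 and 0.62) and S1pr1 (1.21 and 0.66) were higher in members. Ribosome assembly had thinned medians of 20 UMIs in HC members and 21 in the left-out HC cells, and of 22 in NC members and 23 in the left-out NC cells.

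Between the libraries, a small share of genes differed among members. Of 8598 genes 265 were at least 1.5-fold higher in HC members than in NC members (3.08%) and 160 lower (1.86%), against 1.99% higher and 1.1% lower among all other cells. Members were summed over 7048945 UMIs in HC and 13975400 in NC, far fewer than the 107382027 and 101813739 of the other cells, and at a floor of 20 CPM the counts were 69 higher and 40 lower. Of the 265 genes 99 were also past 1.5-fold in the same direction among other cells, and of the 160 genes 38.

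Many glycolysis and low-oxygen genes were higher in HC members. Of 17 glycolysis genes 9 were higher and 0 lower, with a median log2 ratio of HC over NC of 0.61 among members and 0.98 among other cells. Pgk1, an ATP-yielding step, stood at 1197 CPM in HC members and 628 CPM in NC members, and Slc16a3, the lactate exporter, at 53.1 and 21.8 CPM. Aldoc, an aldolase, had ratios of 1.80 among members and 2.20 among other cells, and Eno1b, which is uncertain because its near-copy Eno1 can share its reads, 1.40 and 1.55. Of 16 hypoxia genes 7 were higher and 0 lower, with medians of 0.55 among members and 0.91 among other cells. Bnip3, which marks mitochondria for removal, stood at 27.8 CPM in HC members and 9.45 CPM in NC members (ratio 1.56), against 44.3 CPM in other HC cells and 9.07 CPM in other NC cells (2.29).

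Ribosome assembly was compared between members that had passed the same cut. None of the 64 genes reached 1.5-fold, and the median ratio of HC over NC was -0.19 among members and -0.36 among other cells. Myc stood at 67.5 CPM in HC members and 65.8 CPM in NC members, a ratio of 0.04, against -0.39 among other cells.

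Some chemokine and engagement genes were lower in HC members. Of 9 cytokine and chemokine genes 4 were lower and 0 higher, with medians of -0.55 among members and -1.43 among other cells. Xcl1 had ratios of HC over NC of -2.49 among members and -3.25 among other cells, Ccl4 of -2.17 and -2.40, and Ccl3 of -1.90 and -2.69. Of 23 engagement genes 6 were lower and 0 higher, and 6 lay above 0. The 6 called lower included Crtam (-1.32 and -1.64), Nr4a2 (-1.07 and -0.91) and Cd160 (-0.90 and -1.18). Nrgn, a calmodulin-binding protein, stood at 84.1 CPM in HC members and 235 CPM in NC members, Rgs16, a brake on G protein signals, at 15.7 and 33.6 CPM, and Bcl2a1d, a survival gene with near-identical copies that counting may not separate, at 44.3 and 85.6 CPM. Itm2a (-0.88) and Ms4a4c (-1.01) were also lower. Igkc was the lowest of the genes named, at -3.81, but 93.4% of its UMIs in NC members came from 1 cell, and without cells carrying macrophage or B cell markers its ratio was 0.24.

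Other genes were higher in HC members. H2-Ab1, an MHC class II chain, stood at 35.5 CPM in HC members and 9.80 CPM in NC members, and Tg, the thyroglobulin gene, at 69.9 and 28.6 CPM. Of 14 effector fate factors 4 were higher and 1 lower, with medians of 0.25 among members and 0.04 among other cells, and of 20 sterol genes 2 were higher and 0 lower, with medians of 0.22 and 0.27. Batf3, an effector fate factor of the AP-1 group, had ratios of 1.17 among members and 0.59 among other cells, and Gzmb of 0.87 and 0.86. Gbp7 (1.05), Mctp2 (1.04), Gcat (1.01) and Prdx4 (0.91) completed the high end. Il2ra had ratios of 0.83 and 0.79, so its HC excess was of like size inside and outside the members.

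**Figure D5:**
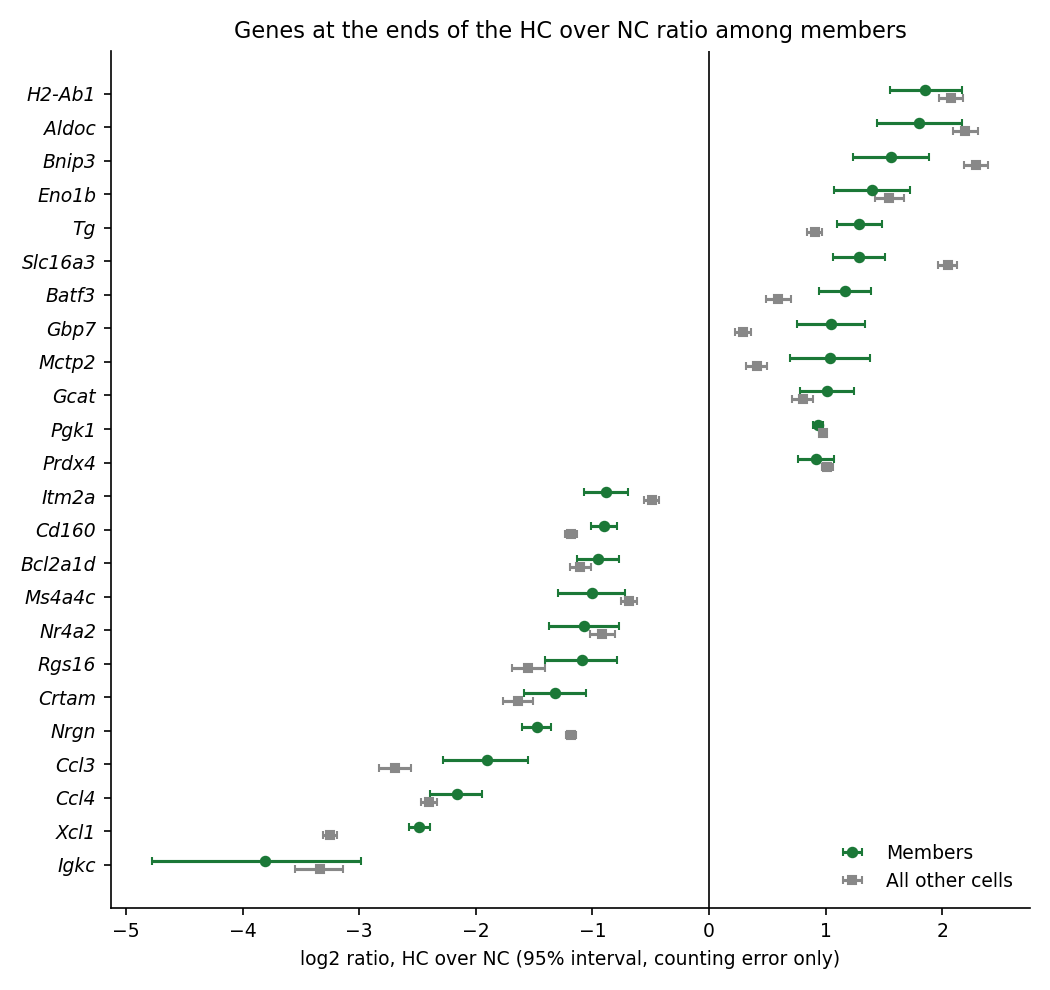
Log2 ratio of HC over NC for the 12 highest and 12 lowest genes among members (green), with the same ratio among all other cells (grey); bars are 95% intervals for counting error only. Slc16a3 and Bnip3 lie nearer 0 in members than in other cells, and Xcl1 likewise on the low side.

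The HC over NC ratio was nearer 0 in members than in the other cells for several of the genes named above. For others, among them Batf3 and Nr4a2, it was farther from 0 in members. For Slc16a3 the ratio was 1.29 among members (1.06 to 1.51) and 2.04 among other cells (1.96 to 2.13), and for Xcl1 -2.49 (-2.58 to -2.40) and -3.25 (-3.31 to -3.19). These intervals do not overlap, but they cover counting error only and the difference was not tested across cultures or animals.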

How the data were processed

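Libraries of single mouse CD8+ T cells were made with a 10x Genomics 3' kit, per the labels' protocols. The authors deposited raw UMI counts, 1 matrix for each library. Per the file headers these came from Cell Ranger 6.1.2. Seurat 3.2.3, Cell Ranger 5.0.0 and the mm10 build are listed, without a role, per the submitters' processing notes. The annotation release is not given in the sources used here. Barcodes with 500 genes and 1000 UMIs or more were kept where mitochondrial transcripts made up no more than 10%. Doublets were not removed.

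Within each library, counts were summed over members and over all other kept cells, and CPM are those sums per 1000000 UMIs of the same set. The other kept cells include those above the cut left out for Nr4a1, Egr2 or Egr3. Genes with at least 5 CPM in either set of each library were compared, without pseudocount, and 1.5-fold marked a call. Intervals are exact (Poisson, Clopper-Pearson, or binomial for ratios) at 95%. Cells are not replicates, so no p-value is given. A count of 0 in members allows 0.426 CPM in HC and 0.215 CPM in NC (3 counts). Python 3.11.15, numpy 2.4.6, scipy 1.17.1 and pandas 2.3.3 were used, with edgeR 4.0.16 and DESeq2 1.42.0 for scaling factors only. The summing and ratio steps were tested on simulated data.

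The members, 36 gene lists and 12 marker lists were chosen with earlier results of these data known. Genes were named as the 12 highest and 12 lowest ratios (at least 20 CPM) of members over other cells, taking the library nearest 0, and of HC over NC among members, without the 11 genes of the rule, predicted genes, antigen receptor segments, ribosomal proteins and genes of the mitochondrial genome. The up to 4 largest ratios of each list and a set of T cell genes were added, 194 in all. Other genes named were chosen after their values were seen, or hold CACGTG. Alternatives covered the score cut, its weights, the exclusion, depth, filters, floors and scaling.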

Additional observations from a re-analysis of the deposited data

Results flagged for a closer look

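Aldoa, a glycolytic aldolase, lay on opposite sides of 0 in the 2 libraries, with a log2 ratio of members over other cells of -0.083 in HC and 0.36 in NC; the difference was not tested. The median of the hypoxia list did the same, at -0.27 in HC and 0.32 in NC, also untested. Outside the members, these genes also differed between libraries, with median log2 ratios of HC over NC of 0.91 for the hypoxia list and 0.98 for the glycolysis list, and the part of that in the result was not tested. Among the barcodes left out by the cell filter, which no comparison uses, 8.79% of 1878 in HC (7.54 to 10.2) and 14.4% of 1157 in NC (12.5 to 16.6) met the score and the exclusion, shares above those of kept cells. The filter drops barcodes with few UMIs, where few score UMIs reach the cut, and the part of depth in these shares was not tested.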

How the results depend on the processing

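Shares of members moved with the rule. Among HC and NC cells they were 1.94% and 5.07% at the 95th percentile, 8.07% and 7.0% with the percentile within each library, 10.6% and 17.5% with the score on thinned cells (where whole-number scores tie), 6.06% and 13.9% without the exclusion, 4.0% and 7.58% at middle depth (the 25th to 75th percentile of UMIs), and 6.87% and 12.9% at or above the median depth, an alternative chosen after seeing the data. A stricter cell filter gave 9.60% in NC. HC lay below NC in all of these except the percentile within each library. Genes higher in members numbered 531 with thinned scores, 270 at 2-fold and 1413 with no floor, against 858. Genes lower numbered 402 with equal weight per marker, 232 with thinned scores, 345 at a floor of 20 CPM, 136 at 2-fold and 1208 with no floor, against 656. Among members, genes higher and lower in HC numbered 402 and 340 at the 95th percentile, 411 and 302 with the percentile within each library, 719 and 575 at middle depth, 69 and 40 at 20 CPM, 43 and 26 at 2-fold, and 1624 and 1049 with no floor, against 265 and 160. With totals that leave out score, ribosomal and mitochondrial genes 405 were higher in HC. Of the 265 genes 180 were called again at middle depth, and of the 858 genes higher in members 707. Among named ratios past 1.5-fold, direction turned for Igkc of HC over NC among members (1.28 at middle depth, 0.000424 without the deepest cells, and 0.24 without cells carrying macrophage or B cell markers, a setting chosen after seeing the data, as was leaving out shared barcodes) and, in HC members over other cells at middle depth, for Ifng (-1.66) and Ccl3 (-0.18). Smaller ratios turned too, among them Ccl3 in NC (to -0.18), Ccl4 in HC (-0.17) and NC (-0.21), and the NC median of the cytokine list (-0.21). The cause was not tested. Of 372 named ratios past 1.5-fold, 285 stayed past it under all 18 alternatives. This count says little about stability. The named genes include the score genes, whose ratios of members over other cells follow from the rule. Alternatives that change only the floor or the fold leave the ratio of a gene as it is. The median of ribosome assembly stayed past 1.5-fold under all 18 in both libraries (0.99 to 1.44 in HC, 1.03 to 1.38 in NC). Depth limits genes near 5 CPM, and the single library per group limits everything set between HC and NC. No paired analysis was possible because each group holds 1 library.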

Other observations

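Tcf4, a transcription factor of the E-protein family, was the 1 gene of 8596 past 1.5-fold in opposite directions, at 11.1 CPM in HC members and 6.74 CPM in other HC cells and at 4.58 CPM in NC members and 7.15 CPM in other NC cells. It was chosen after its values were seen.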
